A study of Homo sapiens with 6 samples.

Results

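Cathepsins are the proteases that digest proteins inside the lysosome, and 10 of their genes are described here in thyroid cancer cells: CTSA, CTSB, CTSC, CTSD, CTSF, CTSH, CTSK, CTSL, CTSS and CTSZ. They were taken from the gene expression table by symbol and not by their measured values, though earlier results of these data were known. All 10 were among the 34738 genes of the table. Knockdown cells transfected with siRNA against GDF15 (siGDF15, 3 libraries) were compared with control cells (NC, 3 libraries). GDF15 encodes a secreted stress-responsive cytokine of the TGF-beta superfamily. All 6 libraries are labelled as the thyroid cancer cell line KHM-5M, while a figure legend of the study names the line TPC-1. NC is labelled as a blank control, whereas the methods list a negative control siRNA, so whether the NC cells were transfected is unresolved. The methods call the 3 libraries of each group biological replicates, without saying whether they came from separate cultures or transfections, and p-values measure the spread between these libraries.

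Cathepsins are made as inactive precursors in the secretory pathway, receive a mannose 6-phosphate tag, and are carried by receptors to acidic compartments where their propeptides are removed. CTSA is a serine carboxypeptidase, CTSD is an aspartic endopeptidase, and the other 8 are papain-like cysteine proteases. In the thyroid follicle, cathepsins release thyroid hormones from thyroglobulin, and in tumors secreted cathepsins can degrade matrix proteins. Many lysosomal genes carry the palindrome TCACGTGA near their start, which factors of the MiT/TFE family are known to bind.

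The upstream sequences of 4 genes are shown because their letters differ at this motif: CTSA and CTSD, which had the largest called increases of the 10 genes, CTSF, which holds the motif core but was hardly expressed, and CTSL, which lacked it and decreased. CTSC and CTSZ also lacked it and were called higher. Whether motif and direction go together was not tested. Only the first listed RefSeq start of each gene was searched. For CTSA and CTSL that start lies inside the gene bounds given below, and other starts were not covered. Each run is the 250 bases before the RefSeq gene start (GRCh38.p14), read 5′ to 3′ on the gene's strand, and capitals mark the E-box CACGTG. They lie at chr20:45891085-45891334 (plus strand) for CTSA, chr11:1763928-1764177 (minus strand) for CTSD, chr11:66568607-66568856 (minus strand) for CTSF and chr9:87725869-87726118 (plus strand) for CTSL.
CTSA: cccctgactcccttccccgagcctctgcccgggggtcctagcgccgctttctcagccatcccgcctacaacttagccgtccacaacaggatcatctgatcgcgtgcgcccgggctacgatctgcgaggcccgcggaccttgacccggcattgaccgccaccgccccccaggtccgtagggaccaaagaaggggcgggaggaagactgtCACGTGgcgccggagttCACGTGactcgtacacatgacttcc
CTSD: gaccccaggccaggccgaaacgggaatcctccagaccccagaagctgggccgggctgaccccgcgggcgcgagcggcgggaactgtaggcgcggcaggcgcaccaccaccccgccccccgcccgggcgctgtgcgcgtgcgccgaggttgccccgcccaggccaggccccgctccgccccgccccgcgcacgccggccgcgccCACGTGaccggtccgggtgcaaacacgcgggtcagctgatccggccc
CTSF: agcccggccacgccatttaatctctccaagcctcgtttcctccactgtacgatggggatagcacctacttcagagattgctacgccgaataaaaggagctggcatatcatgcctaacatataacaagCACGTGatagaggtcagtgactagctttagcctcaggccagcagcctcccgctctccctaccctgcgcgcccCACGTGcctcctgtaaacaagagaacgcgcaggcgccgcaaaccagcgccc
CTSL: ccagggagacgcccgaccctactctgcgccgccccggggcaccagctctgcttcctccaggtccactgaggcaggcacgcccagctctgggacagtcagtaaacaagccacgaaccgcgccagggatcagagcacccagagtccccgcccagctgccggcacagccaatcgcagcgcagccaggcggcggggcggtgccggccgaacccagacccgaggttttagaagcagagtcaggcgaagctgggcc

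RefSeq upstream sequences were matched for 7 of the 10 genes, with no entry used for CTSB, CTSK and CTSS. CACGTG was searched on both strands, on which it reads the same. Its first letter lay 42 and 25 bases before the start of CTSA, 47 bases before that of CTSD, and 123 and 51 bases before that of CTSF. The windows of CTSC, CTSH, CTSL and CTSZ did not contain these letters. Over all promoters of the same length, with every listed start counted, 6.34% of 35116 held CACGTG. The shares of tested and lysosome genes, and the 7 windows, took only the first listed start of each gene. The share was 9.26% among the 8820 matched genes with a mean level high enough to be tested, 1 FPKM or more, 10.2% among those that increased and 8.50% among those that decreased. Among 87 other genes of the KEGG lysosome pathway it was 19.5%. The longer form TCACGTGA, which contains CACGTG, was found only in CTSA of the 7 windows, against 0.854% of all promoters, 1.85% of the tested genes and 10.3% of the other lysosome genes. Other promoter letters were more common. The GC box GGGCGG was in 6 of the 7 windows and in 69.7% of tested genes, CCAAT was in the windows of CTSC and CTSL and in 35.5% of tested genes, and TATAAA was in none of the 7 and in 4.85% of tested genes. A match is a description of letters and not of binding.

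The libraries were poly(A)-selected, prepared with a dUTP strand mark, and sequenced as read pairs. Total expected counts lay between 67569576 and 68025163 in NC and between 51738814 and 67793417 in siGDF15, with the lowest total in siGDF15 replicate 2. GDF15 was 22.4, 19.3 and 23.1 FPKM (fragments relative to gene length and library depth) in NC and 10.8, 10.5 and 10.7 FPKM in siGDF15. The groups did not overlap, and GDF15 fell by 0.92 on the log2 scale (SE 0.079, edgeR adjusted p = 2.4e-05). The test covered the 11867 genes that averaged 1 FPKM or more over the 6 libraries, and their median log2 fold change was 0.0026. Among thyroid markers, PAX8 averaged 59.1 FPKM in NC and 79.4 in siGDF15, whereas TG (thyroglobulin) averaged 0.0548 and 0.186, and NKX2-1 and SLC5A5 stayed under 0.05 FPKM in every library. HHEX went from 4.23 to 2.67 FPKM (log2 fold change -0.56, edgeR adjusted p = 0.0014), and FOXE1 was 2.76 and 2.83 FPKM (0.14, edgeR adjusted p = 0.22). Macrophages are rich in several cathepsins, so their markers were also read: 7 of 9 were in the table, none averaged 1 FPKM, and their sum lay between 0.374 and 0.531 FPKM in NC and between 0.723 and 1.03 FPKM in siGDF15. CD14 made up most of this shift (0.199 to 0.671 FPKM), on 14 to 92 counts per library. PTPRC was listed at 0 in all libraries but NC replicate 1, where it was 0.00685 FPKM. CSF1R went the other way without overlap between groups (0.154 to 0.0859 FPKM). ITGAM also averaged lower in siGDF15, with overlap (0.0700 to 0.0420 FPKM). CD163, MRC1 and LYZ stayed under 0.1 FPKM in every library. In bulk RNA, fewer cells of a type and less RNA per cell cannot be told apart.

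CTSD, CTSA, CTSB, CTSZ and CTSC transcripts were higher in siGDF15 and CTSL transcripts were lower. Of the 10 cathepsins 6 passed the expression threshold. Among these 6 genes, 5 were called higher at an edgeR adjusted p under 0.05, beside 30% of all tested genes, and 1 was called lower, beside 31.4%. Their groups did not overlap either, with 5 higher (25.6% of all tested genes) and 1 lower (42.8%). The median log2 fold change of the 6 was 0.45, against 0.0026 over all tested genes. Since so many genes of these cells were called in each direction, the sizes of the changes are given for each gene.

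**Figure D1:**
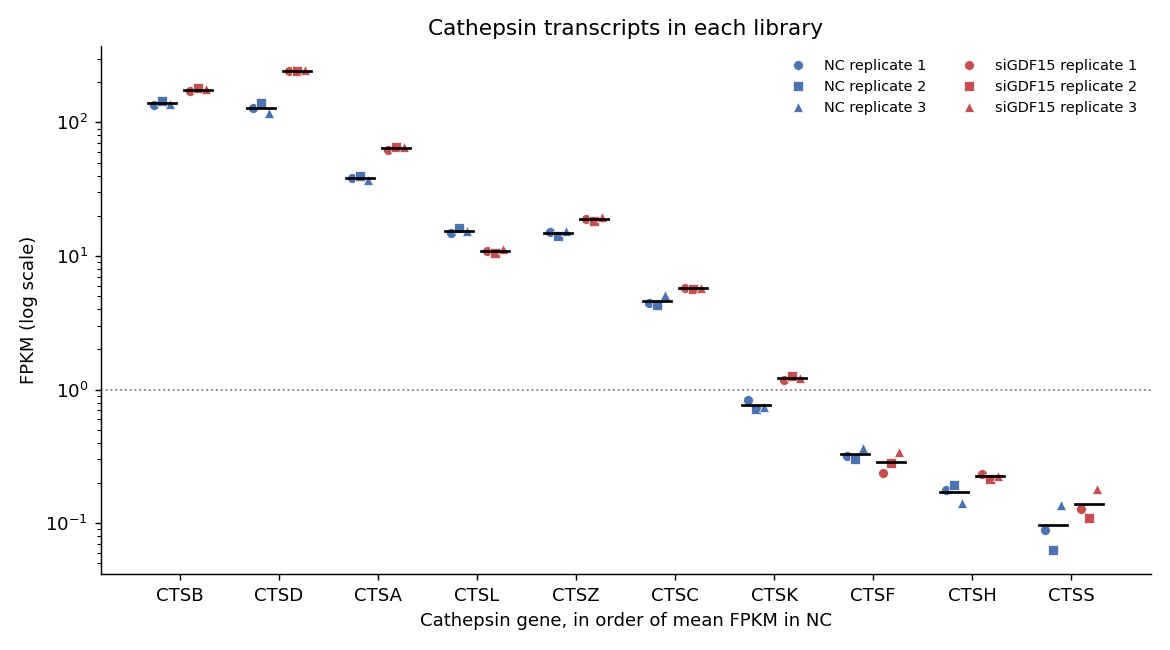
FPKM of the 10 cathepsins in each of the 6 libraries (points, log axis), in order of the NC mean, with group means as short black lines and a dotted line at 1 FPKM. Values ran from 0.0628 FPKM for CTSS in NC replicate 2 to 247 FPKM for CTSD in siGDF15 replicate 3. The siGDF15 points lay above the NC points for CTSD, CTSA, CTSB, CTSZ, CTSC, CTSK and CTSH and below them for CTSL. Among all tested genes, which leave out CTSK and CTSH, 25.6% lay higher without overlap and 42.8% lower.

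CTSD, the main aspartic endopeptidase of lysosomes, rose most. It lies on chromosome 11 at bases 1752752 to 1763964 of the minus strand (GRCh38). Its level was 128, 141 and 117 FPKM in NC and 243, 243 and 247 FPKM in siGDF15. All siGDF15 libraries stood far above the highest NC library, and the NC libraries were the more spread (129 ± 11.8 and 244 ± 2.13 FPKM, mean ± SD, n = 3 each). The log2 fold change was 1.03 (SE 0.062, edgeR adjusted p = 3.46e-06), a fold of 2.05 that exceeded 97.1% of all tested genes. CTSD was the only one of the 10 genes called higher with a log2 fold change of at least 1, a limit passed by 3.03% of tested genes. It sat at that limit, with a log2 fold change of 0.97 without NC replicate 3 and 0.93 when libraries were scaled by total count alone. Fitted folds carry the TMM scaling between libraries and FPKM does not, so the ratio of the FPKM means was lower, at 1.90. A read-through gene on the same strand, ENSG00000250644, overlaps CTSD over 11203 bases and could share its reads. It was at 1.04, 1.19 and 2.49 FPKM in NC and 1.10, 1.26 and 2.52 FPKM in siGDF15, so it was high in replicate 3 of each group and did not differ by the test (edgeR adjusted p = 0.77).

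CTSA, also named protective protein, trims peptides from their carboxyl end and keeps beta-galactosidase and neuraminidase 1 stable in a complex. The gene lies on chromosome 20 at bases 45890144 to 45898949 of the plus strand. Its level was 38.1, 40.0 and 36.7 FPKM in NC and 62.5, 65.2 and 65.5 FPKM in siGDF15. The gap between the groups was many times the spread within them (38.3 ± 1.62 and 64.4 ± 1.65 FPKM). The log2 fold change of 0.86 (SE 0.047, edgeR adjusted p = 2.32e-06), a fold of 1.81, was above that of 95.3% of tested genes. Transcripts of both partners were called higher as well, beside 30% of all tested genes. GLB1, the beta-galactosidase, went from 11.2 ± 1.28 to 23.5 ± 1.07 FPKM (log2 fold change 1.17, SE 0.083, edgeR adjusted p = 8.2e-06), and NEU1, the neuraminidase, from 9.75 ± 0.591 to 16.2 ± 0.569 FPKM (0.84, SE 0.059, edgeR adjusted p = 7.9e-06). PLTP, a phospholipid transfer protein gene on the opposite strand, shares 329 bases with CTSA and rose from 12.0 ± 0.207 to 23.2 ± 1.39 FPKM (log2 fold change 1.06). Whether the counting used strand is not stated, so reads from the shared bases cannot be assigned with certainty.

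CTSB, a cysteine protease that cuts within proteins and also removes dipeptides, had the highest NC level. It is on chromosome 8 at bases 11842524 to 11869533 of the minus strand. Its level was 136, 144 and 136 FPKM in NC and 171, 179 and 178 FPKM in siGDF15 (139 ± 4.76 and 176 ± 4.69 FPKM). The groups were well separated. The increase was smaller than that of CTSD, with a log2 fold change of 0.45 (SE 0.044, edgeR adjusted p = 4.7e-05) or 1.36-fold.

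CTSZ, a carboxypeptidase also called cathepsin X, had a fold change close to that of CTSB. The gene lies on chromosome 20 at bases 58985686 to 59008238 of the minus strand. Its level was 15.2, 14.1 and 15.3 FPKM in NC and 18.9, 18.2 and 19.6 FPKM in siGDF15. These values gave a log2 fold change of 0.45 (SE 0.050, edgeR adjusted p = 0.000101), with every siGDF15 library above every NC library. NELFCD, a subunit of the negative elongation factor, overlaps CTSZ over 9448 bases on the opposite strand and went the other way, from 13.1 ± 0.811 to 5.61 ± 0.823 FPKM (log2 fold change -1.11, SE 0.107, edgeR adjusted p = 4.4e-05). As with PLTP and CTSA, reads from the shared bases cannot be assigned with certainty.

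CTSC, the dipeptidyl peptidase that activates serine proteases of immune cells, increased to an extent near that of CTSB and CTSZ. It lies on chromosome 11 at bases 88265069 to 88359679 of the minus strand. Its level was 4.47, 4.32 and 5.07 FPKM in NC and 5.75, 5.62 and 5.77 FPKM in siGDF15. The siGDF15 libraries nearly coincided, and NC replicate 3 came closest to them. The log2 fold change was 0.41 (SE 0.065, edgeR adjusted p = 0.000741).

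CTSL, a cysteine endopeptidase with broad action on proteins and matrix, decreased. It lies on chromosome 9 at bases 87724051 to 87731469 of the plus strand. Its level was 14.8, 16.2 and 15.4 FPKM in NC and 10.9, 10.6 and 11.2 FPKM in siGDF15 (15.5 ± 0.656 and 10.9 ± 0.331 FPKM). All siGDF15 libraries were below all NC libraries. The log2 fold change was -0.40 (SE 0.048, edgeR adjusted p = 0.000153), a fitted fold of 0.757, and 20.1% of tested genes had a lower value. The ratio of the FPKM means was 0.703. The 3 CTSL pseudogenes of the table had at most 0.0618 FPKM and 5 counts in any library.

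**Figure D2:**
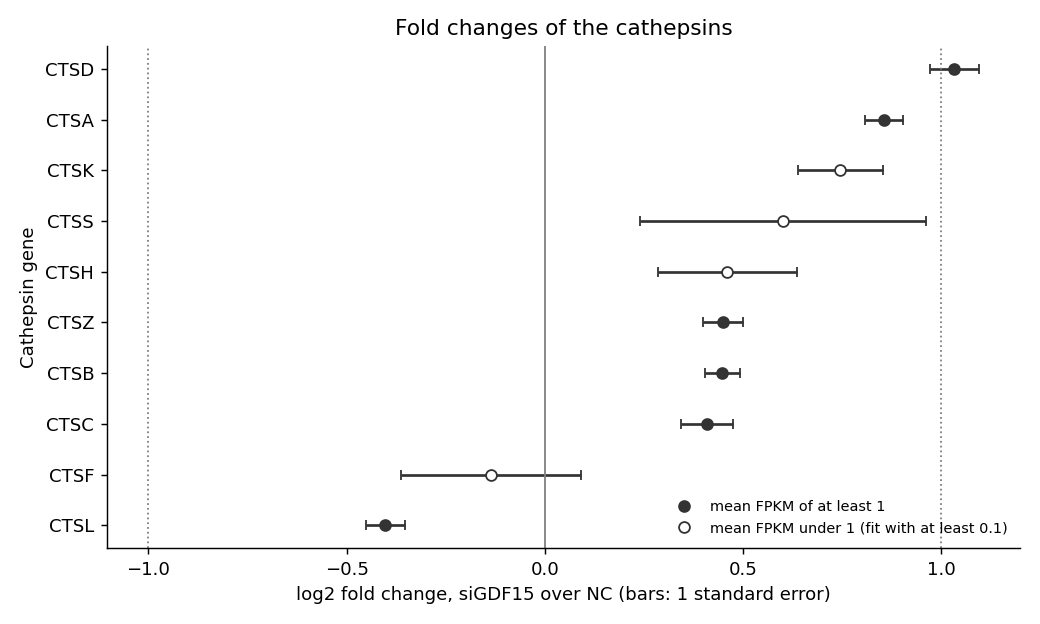
Log2 fold changes (siGDF15 over NC) of the cathepsins with bars of 1 SE, for the genes that passed the threshold of 1 FPKM and, from a fit with a threshold of 0.1 FPKM, for CTSK, CTSH, CTSS and CTSF (open points), with dotted lines at 1 and -1. CTSD (1.03) and CTSA (0.86) stood apart from CTSB, CTSZ and CTSC (0.41 to 0.45), and CTSL (-0.40) lay on the other side of 0.

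The 4 cathepsins under the threshold were CTSK, CTSF, CTSH and CTSS, of which the last is best known from antigen-presenting cells. CTSK, the collagen-degrading cathepsin of osteoclasts, missed it narrowly with a mean of 0.991 FPKM. Its level was 0.832, 0.716 and 0.739 FPKM in NC and 1.17, 1.27 and 1.22 FPKM in siGDF15, from 457 to 774 counts per library. The groups did not overlap, and the exact permutation test gave the smallest two-sided p that 3 against 3 allows, 0.1. In an edgeR fit that took in all genes with a mean of at least 0.1 FPKM, CTSK was called higher with a log2 fold change of 0.75 (SE 0.107, adjusted p = 0.000529). In this wider fit of 19360 genes, 6 of the 10 cathepsins were called higher, beside 20.1% of genes, 1 was called lower, beside 22.1%, and the other 3 were not called.

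CTSH, an aminopeptidase and endopeptidase, was 0.178, 0.192 and 0.142 FPKM in NC and 0.232, 0.216 and 0.224 FPKM in siGDF15. The groups did not overlap (exact permutation p = 0.1), but the difference did not pass the wider edgeR fit (log2 fold change 0.46, SE 0.175, adjusted p = 0.064). CTSS was 0.0894, 0.0628 and 0.137 FPKM in NC and 0.128, 0.110 and 0.181 FPKM in siGDF15, and CTSF, a widely expressed papain-like protease, was 0.321, 0.304 and 0.368 FPKM in NC and 0.237, 0.280 and 0.339 FPKM in siGDF15. For both genes the groups overlapped (exact permutation p = 0.3 each). Their log2 fold changes in the wider edgeR fit were 0.60 (SE 0.361, adjusted p = 0.22) and -0.14 (SE 0.228, adjusted p = 0.68). They rested on 33 to 97 counts for CTSS and 70 to 120 counts for CTSF, where 4 counts were taken as 1 read pair. With so few counts and these SE, a change of the size seen for CTSB could be missed.

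The 10 genes were also summed. Their FPKM added up to 338, 361 and 327 in NC and 514, 524 and 529 in siGDF15, a ratio of means of 1.53 with no overlap between groups. By count they held 0.336 ± 0.0111% of all counts in NC and 0.487 ± 0.00807% in siGDF15. CTSB and CTSD together gave 78.2 ± 0.789% of the summed FPKM in NC and 80.5 ± 0.167% in siGDF15. Within the sum the share of CTSD went from 37.5 ± 1.61 to 46.8 ± 0.498%, that of CTSB from 40.6 ± 0.861 to 33.7 ± 0.519%, and that of CTSL from 4.53 ± 0.167 to 2.08 ± 0.0597%. The share of CTSB was thus lower although its own level was higher.

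**Figure D3:**
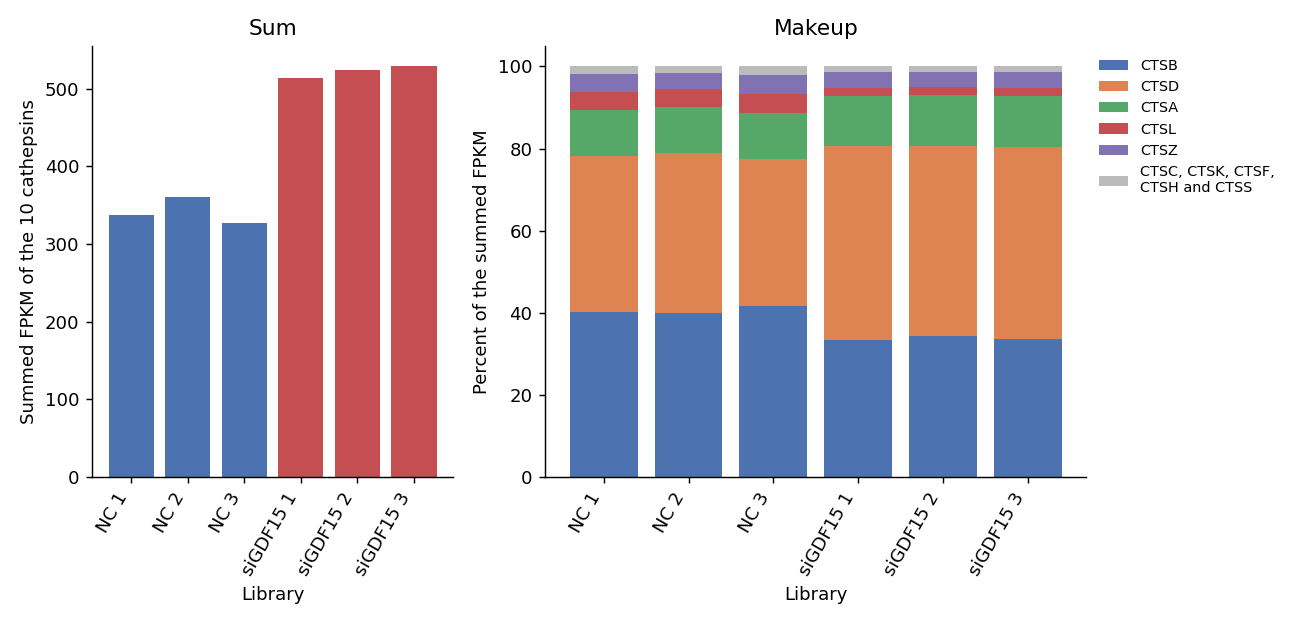
Left, the summed FPKM of the 10 cathepsins in each library. Right, the percent of that sum given by each gene on the deposited FPKM scale: the sum was 327 to 361 in NC and 514 to 529 in siGDF15, and CTSD took the largest part in siGDF15 in place of CTSB.

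Ratios of a pair of cathepsins within a library do not depend on the scaling between libraries, and these were chosen after the values were seen. CTSD over CTSB was 0.938, 0.975 and 0.861 in NC and 1.43, 1.35 and 1.39 in siGDF15. CTSL over CTSZ was 0.976, 1.14 and 1.01 in NC and 0.575, 0.579 and 0.573 in siGDF15. Every siGDF15 library had a higher first ratio and a lower second ratio than any NC library, which is given as a description without a test because the pairs were chosen for it.

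By deposited FPKM the order in NC was CTSB, CTSD, CTSA, CTSL, CTSZ, CTSC, CTSK, CTSF, CTSH and CTSS. The ranges of CTSB and CTSD overlapped there, as did those of CTSL and CTSZ, while the other neighbours were separate. In siGDF15 the order was CTSD, CTSB, CTSA, CTSZ, CTSL, CTSC, CTSK, CTSF, CTSH and CTSS, with no overlap between neighbours. This order depends on the gene length behind the FPKM. Count and FPKM together imply a length of 19389 bases for CTSZ and 24866 bases for CTSC, which are 13.0 and 12.9 times their principal mRNA in GENCODE 29 (1495 and 1921 bases), against 2.68 times for CTSD, 2.72 for CTSB, 2.81 for CTSL, 4.02 for CTSA and 5.03 for CTSK. Over 501 genes with a single annotated transcript, the same calculation came within 5% of the annotated length for 79.4%.

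Per length of the principal mRNA, the order in NC became CTSB (378 FPKM), CTSD (345), CTSZ (193), CTSA (154), CTSC (59.8), CTSL (43.6), CTSK (3.83), CTSH (1.10), CTSF (0.709) and CTSS (0.167). In siGDF15 it was CTSD (656 FPKM), CTSB (479), CTSA (259), CTSZ (245), CTSC (73.9), CTSL (30.6), CTSK (6.13), CTSH (1.45), CTSF (0.611) and CTSS (0.242). The ranges of CTSB and CTSD overlapped in NC and those of CTSA and CTSZ in siGDF15. CTSZ and CTSC thus stood above CTSL in each group on this scale, and CTSK and CTSH had group means above 1 FPKM. The scale assigns every count of a gene to its principal mRNA, wherever in the gene the reads lay. Any reads from other sequence make these values too high, so they are upper limits for the principal mRNA. For CTSZ such sequence could include part of the 9448 bases shared with NELFCD. Whether the order holds for the principal mRNAs themselves was not tested. The exchange of CTSB and CTSD at the top was the same on both scales, and fold changes of a gene do not depend on its length.

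**Figure D4:**
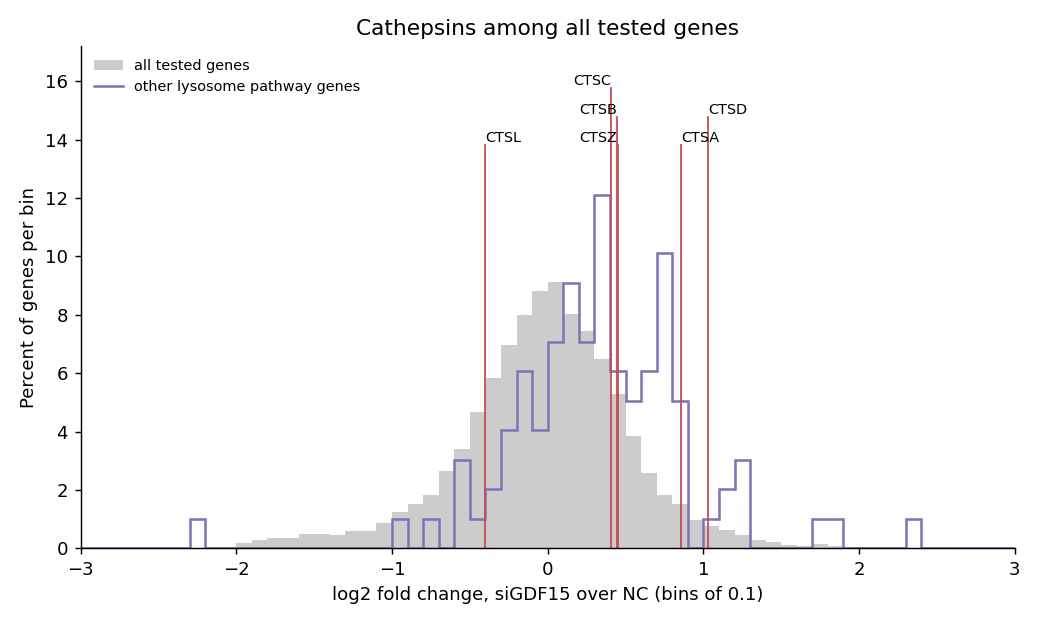
Distribution of log2 fold changes (siGDF15 over NC) in bins of 0.1, as percent of genes per bin, for all tested genes and for the other genes of the KEGG lysosome pathway, with the 6 tested cathepsins marked by lines and 14 genes beyond the axis. CTSD and CTSA lie in the upper tail and CTSL below 0, while the medians are 0.0026 for all tested genes and 0.32 for the other lysosome genes.

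All 10 cathepsins belong to the KEGG lysosome pathway as annotated in the table. Of its 115 other genes 99 were tested, and 62 were called higher, 14 lower and 23 not called. Of all tested genes 30% were called higher and 31.4% lower. The median log2 fold change of the 99 was 0.32. With total count scaling 53 of them were higher and 21 lower, beside 2701 and 4679 of the 11867 tested genes. CTSD was exceeded by 9 of these genes and CTSA by 10, and 7 had a lower fold change than CTSL. Among the genes with the smallest adjusted p were SGSH (log2 fold change 1.25), which degrades a sulfated glycosaminoglycan, and FUCA1 (1.88), which removes fucose. The most abundant were PSAP and LAPTM4A (0.24), a lysosomal membrane protein. PSAP, the precursor of the saposins that CTSD cleaves, went from 213 ± 8.86 to 312 ± 10.4 FPKM (log2 fold change 0.66, SE 0.047, edgeR adjusted p = 8.8e-06).

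Of 5 further cathepsin genes, CTSG was not analysed here, and CTSE and CTSW were under the threshold. The other two were called in opposite directions. CTSO, a cysteine protease, was 0.730 ± 0.130 FPKM in NC and 3.41 ± 0.262 FPKM in siGDF15 (log2 fold change 2.32, SE 0.130, edgeR adjusted p = 2.4e-06). CTSV, the closest paralog of CTSL, was 1.82 ± 0.119 and 0.853 ± 0.0392 FPKM (-0.98, SE 0.093, edgeR adjusted p = 3.9e-05), so CTSL and CTSV both decreased. Of 11 inhibitors of cysteine cathepsins, 2 were tested and both were called higher, beside 30% of all tested genes. CST3, the secreted cystatin C, went from 25.2 ± 2.27 to 32.1 ± 1.14 FPKM (log2 fold change 0.45, edgeR adjusted p = 0.000524). CSTB, the cytosolic cystatin B, went from 19.7 ± 0.152 to 23.7 ± 1.24 FPKM (0.38, edgeR adjusted p = 0.000349).

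Other lysosomal peptidases were called higher in 5 of 5 tested of 6 listed, beside 30% of all tested genes, with a median log2 fold change of 0.60. TPP1, a tripeptidyl peptidase, rose by 1.10 on the log2 scale, LGMN, the legumain that processes cathepsin precursors, by 0.66, SCPEP1, a carboxypeptidase, by 0.60, PRCP, a prolylcarboxypeptidase, by 0.52 and DPP7, a dipeptidyl peptidase, by 0.42. The V-type proton pump, which acidifies the lysosome, was called higher in 12 and lower in 1 of 15 tested subunits of 16 listed. The shares of all tested genes were 30% and 31.4%, and the median of the subunits was 0.47. ATP6V1B2 (0.77), ATP6AP1 (0.75), ATP6V0D1 (0.70) and ATP6V1G1 (0.50) had the smallest adjusted p and ATP6V0E1 (0.52) and ATP6V1F (0.58) the highest levels. ATP6V1D (-0.20), named after its value was seen, was the listed subunit called lower. With total count scaling 11 subunits were called higher and 2 lower, beside 2701 and 4679 of the 11867 tested genes. The list did not hold TCIRG1 (-0.55, edgeR adjusted p = 1.7e-05) and ATP6V0D2 (-2.25, edgeR adjusted p = 0.00041), pump subunits of the KEGG pathway that were also called lower and are named after their values were seen.

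Genes that tag and sort lysosomal enzymes changed less evenly. Of 9 tested, 5 were called higher and 1 lower, beside 30% and 31.4% of all tested genes, with a median log2 fold change of 0.17. With total count scaling 4 were higher and 2 lower, beside 2701 and 4679 of the 11867 tested genes. GNPTAB (0.58) and GNPTG (0.46), subunits of the enzyme that starts the mannose 6-phosphate tag, NAGPA (0.60), which uncovers it, and the sorting receptor SORT1 (0.79) rose. M6PR, the most abundant gene of the list and one of the tag's receptors, had a log2 fold change of 0.17 (SE 0.050, edgeR adjusted p = 0.018) with overlapping FPKM, 37.9 to 40.8 in NC and 40.2 to 41.8 in siGDF15. It was not called in the wider fit (edgeR adjusted p = 0.066). GGA2, an adaptor for these receptors named after its value was seen, fell by 0.27. Of the 3 tested MiT/TFE factors, TFE3 (0.46) and MITF (0.48) were called higher, beside 30% of all tested genes. With limma on log2 of FPKM plus 1, 1 of the 3 was called higher, beside 2687 of the 11867 tested genes. MITF averaged 1.09 FPKM over the 6 libraries, just above the threshold. TFEB was 1.55 ± 0.205 FPKM in NC and 1.63 ± 0.132 FPKM in siGDF15 (log2 fold change 0.18, SE 0.119, edgeR adjusted p = 0.23). The part of these transcripts, of the macrophage markers and of the PAX8 difference in the cathepsin values was not tested.

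**Figure D5:**
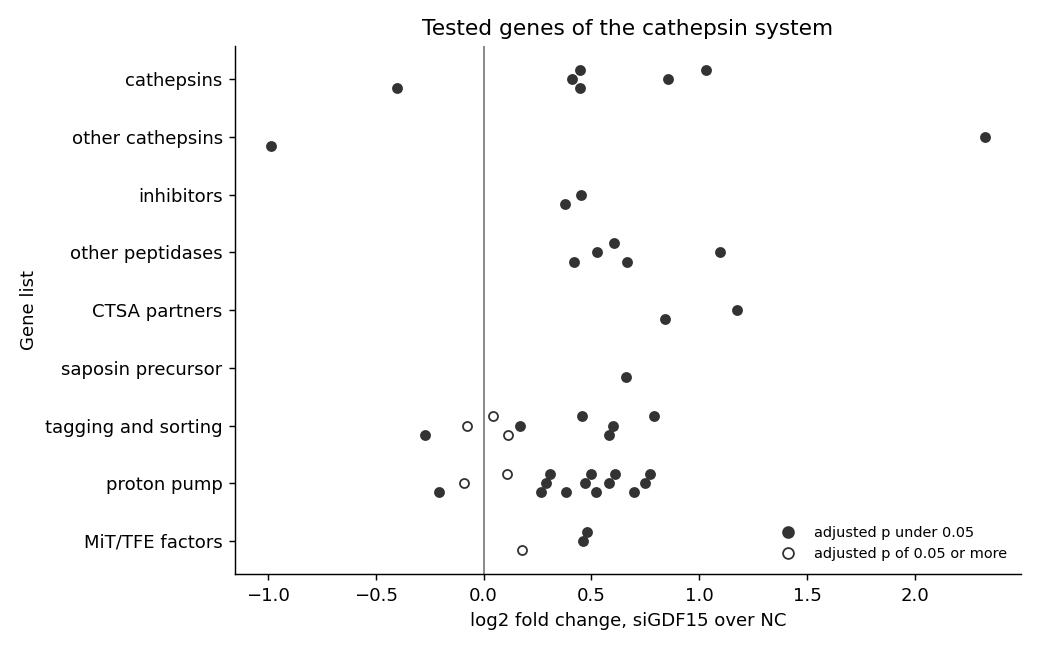
Log2 fold changes (siGDF15 over NC) of the tested genes in each list of the cathepsin system, 1 point per gene, filled where the edgeR adjusted p was under 0.05. The points of the other lysosomal peptidases (0.42 to 1.10) all lay above 0, whereas those of tagging and sorting (-0.27 to 0.79), of the proton pump (-0.20 to 0.77) and of the cathepsins (-0.40 to 1.03) lay on both sides.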

How the data were processed

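RNA was measured in 6 libraries. The authors deposited FPKM values and expected counts per gene, without versions of their tools: per the labels and the submitters' processing notes, reads were trimmed with fastp, aligned to GRCh38 with HISAT2 and quantified with StringTie, and edgeR was named. The deposited FPKM values are scaled by gene length and mapped fragments. The deposited expected counts are whole numbers worked out from coverage, without normalization. The value 4 was the most frequent among small counts (15.6% of values from 1 to 20), and a read pair was therefore set to 4 counts. The values 1, 2 and 3 also occurred (13.1%, 11.3% and 8.42%), so this setting is approximate. The annotation release is not given in the sources used here. No library pair of a group shared more than 0.413% of identical counts.

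Counts were tested with edgeR 4.0.16 (quasi-likelihood F test, TMM, two-sided, Benjamini-Hochberg adjustment, threshold 0.05) over genes averaging 1 FPKM or more, all 6 libraries in 1 fit. Single values were compared by exact permutation. Before use the fit was run on simulated counts with few changed genes, so this did not test the scaling where many genes change. Alternatives were total count scaling, median scaling, DESeq2 1.42.0, limma 3.58.1 on log2 of FPKM plus 1 or 0.1, a threshold of 0.1 FPKM or none, a replicate block and leaving out each library; division of counts by 4 and the mRNA length of GENCODE 29 were added after seeing the data. The cathepsins and all lists were chosen with earlier results of these data known. All 10 cathepsins, GDF15 and genes overlapping a cathepsin are named, and from each list every gene where at most 5 were tested, otherwise the 4 with the smallest adjusted p and the 2 with the highest mean FPKM. Promoter letters come from RefSeq (GRCh38.p14). Depth limits precision as the counts show. Some genes that this rule or the marker lists name are not reported here.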

Additional observations from a re-analysis of the deposited data

How the results depend on the processing

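The 6 tested cathepsins kept their direction and their call under the 15 alternatives run for each, from 0.93 to 1.10 for CTSD, 0.74 to 0.91 for CTSA, 0.34 to 0.50 for CTSB, 0.32 to 0.50 for CTSZ, 0.26 to 0.49 for CTSC and -0.50 to -0.35 for CTSL on the log2 scale. The lowest value of CTSC came from limma on log2 of FPKM plus 1 and its highest from leaving out NC replicate 3. CTSK passed the test where the expression threshold was lowered to 0.1 FPKM (log2 fold change 0.75) or dropped (0.72), which brought the number of cathepsins called from 6 to 7. The summed level of the 10 genes rose by 0.61 on the log2 scale in FPKM, by 0.54 in share of all counts and by 0.57 per length of the principal mRNA, and by 0.58 to 0.65 when libraries were left out in turn. Called genes were higher in 48.9% of cases with TMM, 36.6% with total counts alone and 55.8% with equal medians, so the balance of calls over all genes depends on the scaling. Over all tested genes, same-numbered libraries did not deviate together (correlations 0.028, -0.068 and 0.054). Whether they were handled together is not stated, and 3 libraries per group cannot exclude a pairing. With a replicate block 6906 genes were called in place of 7286, the 6 cathepsins stayed called, and CTSD was 1.04. CTSF and CTSS, with at most 120 counts in a library, are limited by depth.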
